A study of Mus musculus with 28 samples.

Results

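Nascent RNA of 9 genes of BMP and Nodal signalling was examined in mouse embryonic stem cells (mESC) with and without Elongin A (EloA). The genes were Id1, Id2, Id3, Lefty1, Lefty2, Nodal, Tdgf1, Smad7 and Skil, chosen by name as BMP and Nodal targets, ligands and feedback inhibitors active in ES cells, and all 9 were found among the 24984 genes of the deposited tables. EloA is a transcription elongation factor that works in a complex with Elongin B and Elongin C. RNA made during a short pulse was measured by Bru-seq: 5-bromouridine (BrU) is fed to the cells, and RNA that carries it is immunopurified and sequenced.

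WT mESC and EloA null mESC of the CCE28 line were compared in 3 conditions. For the steady state, cells were given 2 mM BrU for 10 min. For the recovery, cells were treated with 1 µM flavopiridol (FP), an inhibitor of the kinase that releases paused Pol II, for 60 min, and BrU was present for 5 min or 10 min after the drug was washed away. Every genotype and condition had 2 libraries, 12 in all. All groups were grown with LIF, serum and the kinase inhibitors PD0325901 and CHIR99021 on feeder fibroblasts that were removed before labelling. The sources used here give no number of EloA null clones and no position of the disruption in the gene. Legends of the study call its duplicates independent experiments, the labels do not say what set them apart, and p-values measure only the spread between these libraries. Samples were grouped by title, because the first steady-state library titled EloA null carries a genotype label of wild type. The labels also name the CJ7 line in the step of BrU labelling, which was not resolved.

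BMP ligands act through receptor kinases that phosphorylate Smad1 and Smad5, which turn on the Id genes, and in ES cells this arm helps to hold back differentiation. Nodal signals through activin receptors and Smad2 and Smad3, needs a co-receptor of the Cripto family, and induces its own inhibitors. Both arms are thus wired with feedback: Smad7, Skil and the Lefty genes are turned on by the signals that they limit.

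Library sizes, worked out from the steps of low RPKM values, ran from 9857527 to 28547356 reads. Eloa itself, the targeted gene, had a mean of 1.17 ± 0.0149 RPKM (SD, n = 2) in WT and 1.92 ± 0.0503 RPKM in the libraries labelled EloA null in steady state, so its nascent RNA was not lower where the label says null. It was also the higher one in both recovery tables, with ratios of 1.97 at 5 min and 1.58 at 10 min. Directions below therefore rest on the titles, and "EloA null" stands for the libraries so labelled. Of 8 markers of ES cells all were above 0.5 RPKM in every condition, with summed levels of 172 to 175 RPKM in WT and 173 to 195 RPKM in EloA null in steady state, 201 to 238 against 151 to 213 RPKM at 5 min, and 238 to 272 against 232 to 241 RPKM at 10 min, which overlapped in each. Of 10 markers of feeder fibroblasts 0 were above it in steady state and 1 in each recovery table, of 6 of primitive endoderm and 5 of mesoderm 0 were in any table. Sox17 was at 0 at 5 min and Mesp1 in both recovery tables. Summed feeder markers were 1.44 to 1.79 RPKM in WT and 1.25 to 1.47 RPKM in EloA null in steady state, 1.47 to 1.63 against 0.814 to 1.18 RPKM at 5 min, and 2.20 to 2.82 against 1.58 to 2.00 RPKM at 10 min, so they were lower in EloA null without overlap in both recovery tables. Summed primitive endoderm markers were so too, at 0.213 to 0.306 RPKM in WT against 0.158 to 0.167 RPKM at 5 min and 0.393 to 0.435 against 0.270 to 0.288 RPKM at 10 min, and mesoderm markers in steady state, at 0.857 to 0.965 against 0.728 to 0.736 RPKM. The genotypes overlapped for primitive endoderm markers in steady state, at 0.725 to 0.803 RPKM in WT against 0.718 to 0.820 RPKM. Mesoderm markers overlapped at 5 min (0.246 to 0.360 against 0.283 to 0.284 RPKM) and at 10 min (0.582 to 0.923 against 0.615 to 0.677 RPKM). The part of these other cells in the values below was not tested. In bulk RNA, fewer cells of a type and less RNA per cell cannot be told apart.

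RPKM values of short genes rest on little sequence here. Comparison of the low values showed that they are whole multiples of what 1 read is worth when only introns, with 1 flanking base of exon at either end, make up the length (between 96.6% and 96.9% of genes with under 200 reads, within 0.02 reads), whereas the span of the gene gave 3.32% to 3.74%. Reads of the 9 genes were worked out on that length. The counted length was 228 bases in Id1, 622 in Id3, 1026 in Id2, 1765 in Lefty1, 3529 in Lefty2, 4634 in Tdgf1, 5276 in Nodal, 21273 in Skil and 24135 in Smad7. It was 19.7% of the span of Id1 and 84.5% of that of Smad7.

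The reads behind the values followed from this. Id1 had 0 to 6 reads per library, Lefty1 0 to 10 and Id2 2 to 33. Id3 had 11 to 128 reads, Lefty2 14 to 87 and Skil 76 to 1017. Nodal had 351 to 2033 reads, Tdgf1 444 to 3270 and Smad7 3325 to 21250. A value of Id1 or Lefty1 is therefore decided by a handful of reads, and intervals given for them cover counting error only.

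**Figure D1:**
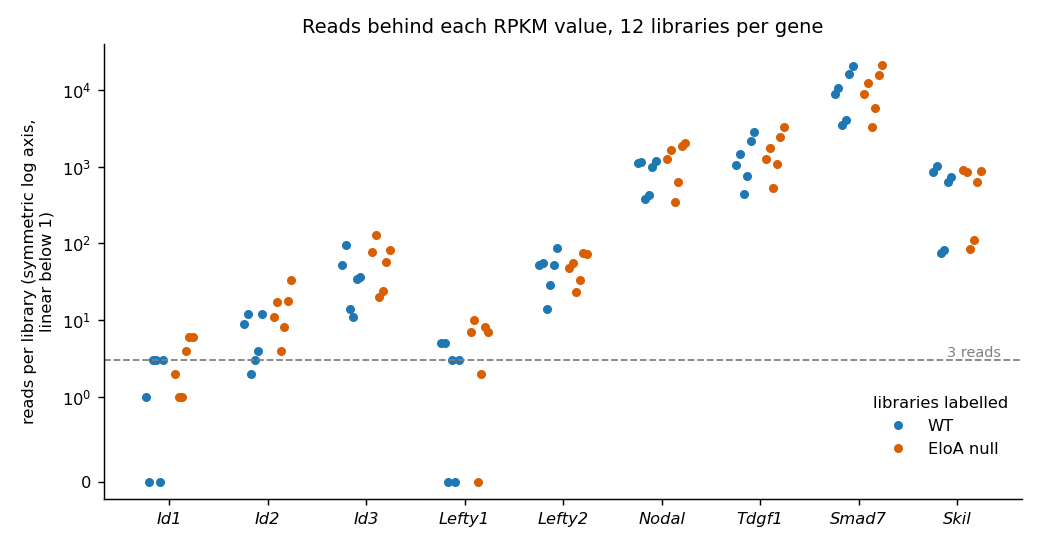
Reads per library (symmetric log axis, linear below 1) for each gene, with WT libraries in blue and libraries labelled EloA null in orange, and a dashed line at 3 reads. Id1 and Lefty1 lie at 0 to 10 reads in all 12 libraries, while Smad7 never falls under 3325.

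The introns that carried the reads of Id2 and Id3 are short, and the first one of each is shown because nearly all statements on these genes rest on such stretches. Both are read from GRCm38.p6, the assembly behind mm10, 5′ to 3′ on the gene's strand, and capitals mark the splice donor and acceptor dinucleotides. That of Id2 spans 288 bases on the minus strand (chr12:25095375-25095662) and that of Id3 spans 115 bases on the plus strand (chr4:136144179-136144293).
Id2 intron 1: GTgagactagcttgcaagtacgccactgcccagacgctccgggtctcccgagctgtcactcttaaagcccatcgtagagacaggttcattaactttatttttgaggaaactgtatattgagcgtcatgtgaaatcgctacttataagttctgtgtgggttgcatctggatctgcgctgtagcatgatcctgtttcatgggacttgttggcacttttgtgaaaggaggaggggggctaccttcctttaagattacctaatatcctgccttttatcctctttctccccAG
Id3 intron 1: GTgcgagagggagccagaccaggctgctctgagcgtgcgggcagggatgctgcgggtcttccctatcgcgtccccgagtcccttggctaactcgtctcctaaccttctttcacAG

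Promoters of 4 of the 9 genes, Id2, Id3, Nodal and Tdgf1, were found in a RefSeq table of GRCm38.p6 promoters. The 250 bases before the start site are printed for Id2, Id3 and Nodal, the genes of the 4 that were past 1.5-fold higher at 10 min of recovery (below). Capitals mark the letters GGCGCC, a GC-rich element bound by Smads of the BMP arm, and CAGAC, the Smad box, on either strand (GTCTG on the other). Id2 lies on the minus strand (chr12:25096093-25096342), Id3 on the plus strand (chr4:136143572-136143821) and Nodal on the plus strand (chr10:61417722-61417971).
Id2 promoter: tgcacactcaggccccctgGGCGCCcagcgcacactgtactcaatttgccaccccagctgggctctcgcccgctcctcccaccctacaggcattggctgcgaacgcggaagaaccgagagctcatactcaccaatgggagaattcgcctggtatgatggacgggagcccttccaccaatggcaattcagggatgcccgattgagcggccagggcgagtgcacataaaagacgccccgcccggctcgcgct
Id3 promoter: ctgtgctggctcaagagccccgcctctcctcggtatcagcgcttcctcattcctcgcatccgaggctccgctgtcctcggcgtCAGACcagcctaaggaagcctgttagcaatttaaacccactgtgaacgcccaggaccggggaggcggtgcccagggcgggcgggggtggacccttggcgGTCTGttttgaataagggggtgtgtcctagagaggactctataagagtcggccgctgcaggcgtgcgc
Nodal promoter: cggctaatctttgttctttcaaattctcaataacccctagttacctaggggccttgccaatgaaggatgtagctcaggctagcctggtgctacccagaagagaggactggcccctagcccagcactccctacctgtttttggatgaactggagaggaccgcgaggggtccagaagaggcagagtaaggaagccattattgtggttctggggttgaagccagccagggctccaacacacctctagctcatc

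Id2 held 1 GGCGCC, starting 231 bases before the start site, and 9.59% of all 32851 promoter windows of this length held one. Id3 held CAGAC starting 167 bases and GTCTG starting 68 bases before the start site, and Tdgf1 held 1 CAGAC, against 42.2% of all windows. Nodal held neither. The letters AATNCACA, a FOXH1 motif, which 3.18% of windows hold, were in none of the 4 windows, which says only that these letters are not in these windows.

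In WT cells in steady state the levels per length fell into a clear order, except among the genes with few reads. Smad7 was highest, at 15.4 and 15.9 RPKM in the 2 libraries, which is above 97.5% of the 11347 genes tested in this table. Tdgf1 followed with 9.55 and 11.2 RPKM and Nodal with 8.88 and 7.75 RPKM. The ligand, its co-receptor and an inhibitor of both arms were thus all among the higher genes, since 93.9% of genes lay below Nodal. Id3 came next with 3.57 and 5.41 RPKM, and Skil with 1.68 and 1.71 RPKM lay near the median gene, which had 1.80 RPKM. Lefty2 had 0.628 and 0.558 RPKM, Id2 0.367 and 0.419 RPKM, Lefty1 0.119 and 0.101 RPKM, and Id1 0.184 and 0 RPKM, where 0 reads allow up to 0.471 RPKM, the value of 3 reads. Neighbours in this order did not overlap between libraries, except Lefty1 and Id1, whose order cannot be read.

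**Figure D2:**
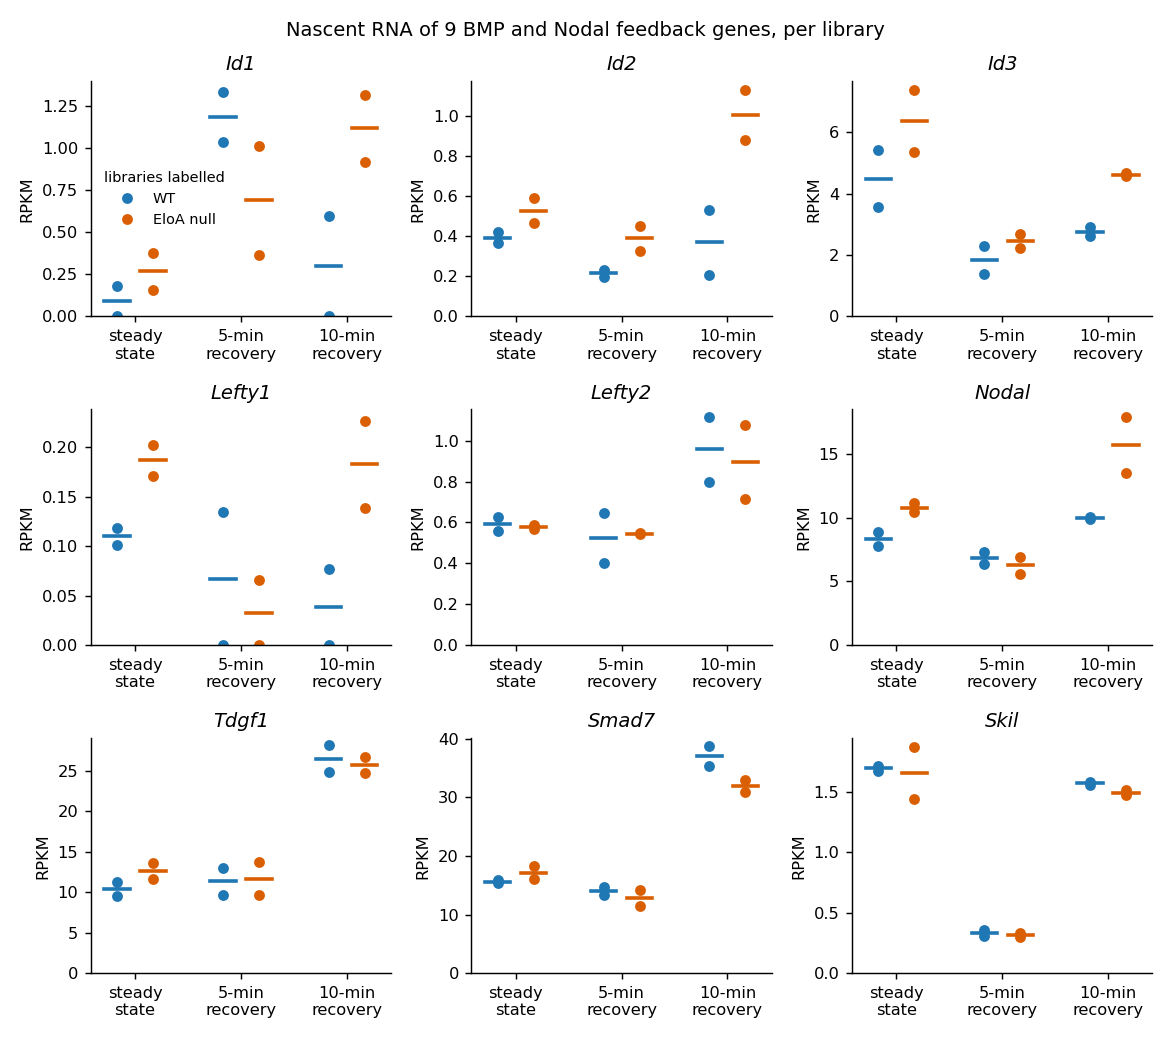
RPKM of each gene in every library by condition, WT in blue and EloA null in orange, with points for libraries and horizontal lines for the mean of 2. The genotypes separate most clearly at 10 min of recovery for Id3 and Nodal, whereas Tdgf1 and Lefty2 overlap there.

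Id3, which encodes an inhibitor of basic helix-loop-helix factors and is a direct BMP target, was the Id gene with the most reads (chromosome 4, 136143822 to 136145392). In steady state it had 3.57 and 5.41 RPKM in WT and 5.35 and 7.36 RPKM in EloA null, and the lower EloA null library lay inside the WT range. At 5 min of recovery it had 2.28 and 1.40 RPKM in WT and 2.70 and 2.23 RPKM in EloA null, again with overlap. At 10 min it had 2.90 and 2.62 RPKM in WT and 4.67 and 4.56 RPKM in EloA null, so both EloA null libraries were above both WT libraries, by a ratio of means of 1.67. The log2 fold change of Id3 was 0.50 ± 0.26 (SE) in steady state, 0.44 ± 0.26 at 5 min and 0.72 ± 0.10 at 10 min, with adjusted p of 0.380, 0.685 and 0.0982 by limma over all genes tested. These are on the scale log2(RPKM + 0.1), which tends to understate changes of low genes. Where a library holds 0 reads it can overstate them against the ratio of means, as for Id1 at 10 min. Id3 is GC-rich, with 57.0% GC against a 95th percentile of 56.4% among the genes tested at 10 min, and with each library's trend with GC content removed the ratio of Id3 at 10 min was 1.25 and its log2 fold change 0.31 ± 0.10, and in steady state the log2 fold change was 0.18 ± 0.24. Single libraries moved Id3 as well: its log2 fold change ran from 0.21 (without WT replicate 1) to 0.80 (without WT replicate 2) in steady state and from 0.10 (without WT replicate 2) to 0.77 (without WT replicate 1) at 5 min, but only from 0.65 to 0.79 at 10 min.

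Id2, a second member of the same inhibitor family, lies on chromosome 12 (25093799 to 25096092). It had 0.367 and 0.419 RPKM in WT and 0.463 and 0.593 RPKM in EloA null in steady state, and 0.198 and 0.231 RPKM against 0.327 and 0.451 RPKM at 5 min. At 10 min it had 0.207 and 0.530 RPKM in WT (4 and 12 reads) and 0.879 and 1.13 RPKM in EloA null (18 and 33 reads). The genotypes did not overlap in any of the 3 tables, with EloA null higher in each. Its log2 fold change was 0.34 ± 0.19 (SE) in steady state and 1.32 ± 0.39 at 10 min, with adjusted p of 0.402 and 0.194, and it was under the limit of 0.5 RPKM in both genotypes at 5 min and not tested. At 10 min the log2 fold change of Id2 was 0.80 without WT replicate 1 and 1.83 without WT replicate 2. Id2 passed that limit only through EloA null in both tables where it was tested. The ratio of summed reads of Id2, scaled to library size, at 10 min was 2.69 with a 95% interval of 1.51 to 5.05 for counting error. It was 1.35 in steady state (0.741 to 2.51) and 1.85 at 5 min (0.607 to 6.71), intervals that span both directions.

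Id1, which is the standard reporter gene of BMP signalling, lies on chromosome 2 (152736251 to 152737410) and gave only 30 reads over the 12 libraries. It had 1 and 0 reads in WT and 2 and 1 reads in EloA null in steady state. At 5 min it had 3 and 3 reads in WT (1.33 and 1.04 RPKM) and 1 and 4 reads in EloA null (0.368 and 1.02 RPKM). At 10 min it had 0 and 3 reads in WT and 6 and 6 reads in EloA null (1.32 and 0.922 RPKM). The ratio of summed reads, scaled to library size, for Id1 was 3.04 in steady state (95% interval 0.244 to 159.7), 0.643 at 5 min (0.155 to 2.53) and 3.37 at 10 min (0.910 to 18.6), so a difference in either direction was not detectable at this depth. By RPKM, EloA null was the lower genotype at 5 min without overlap and the higher one at 10 min without overlap, and Id1 passed the limit at 10 min only through EloA null. Its log2 fold change at 10 min was 0.79 without WT replicate 1 and 3.59 without WT replicate 2, and that at 5 min was -0.20 without EloA null replicate 1 and -1.45 without EloA null replicate 2.

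Lefty1 and Lefty2 encode secreted inhibitors of Nodal and both lie on chromosome 1 (180935022 to 180938401 and 180893108 to 180899107). Their counted introns share few long stretches: 8 of 1612 words of 50 bases in the introns of Lefty1 also occur in those of Lefty2, and the longest shared run is 57 bases. Lefty1 is also overlapped by a lncRNA of the opposite strand, Gm39715, and whether strand was used in the counting is not stated. Lefty1 had 5 and 5 reads in WT and 7 and 10 reads in EloA null in steady state, 0 and 3 against 0 and 2 reads at 5 min, and 0 and 3 against 8 and 7 reads at 10 min. It was under the limit of 0.5 RPKM in every group and was not tested. Its ratio of summed reads, scaled to library size, was 1.72 in steady state (95% interval 0.746 to 4.21), 0.514 at 5 min (0.0430 to 4.49) and 4.21 at 10 min (1.19 to 22.7), for counting error only.

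Lefty2 was read better and did not separate the genotypes. It had 0.628 and 0.558 RPKM in WT and 0.588 and 0.568 RPKM in EloA null in steady state, where the EloA null values lay inside the WT range. At 5 min it had 0.402 and 0.649 RPKM against 0.547 and 0.541 RPKM, and at 10 min 0.798 and 1.12 RPKM against 1.08 and 0.715 RPKM. The log2 fold change of Lefty2 was -0.03 in steady state with a 95% interval of -0.39 to 0.33, 0.07 at 5 min (-0.66 to 0.81) and -0.09 at 10 min (-0.78 to 0.59). Only the interval of the steady state held no change of 1.5-fold in either direction.

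Nodal, the ligand, lies on chromosome 10 (61417972 to 61425338) and did not overlap between genotypes in the 2 tables with a BrU pulse of 10 min. In steady state it had 8.88 and 7.75 RPKM in WT and 10.4 and 11.2 RPKM in EloA null, and at 10 min of recovery 9.91 and 10.1 RPKM in WT and 17.9 and 13.5 RPKM in EloA null. Both EloA null libraries were above both WT libraries in these tables. At 5 min of recovery the values were 7.33 and 6.36 RPKM in WT and 5.58 and 6.91 RPKM in EloA null, and the genotypes overlapped. The ratio of means was 1.30 in steady state, 0.913 at 5 min and 1.57 at 10 min. The log2 fold change of Nodal was 0.37 ± 0.11 (SE), -0.13 ± 0.20 and 0.63 ± 0.16, with limma adjusted p of 0.206, 0.885 and 0.167. Without EloA null replicate 1, the library at 17.9 RPKM, the value of Nodal at 10 min was 0.43 and no longer past 1.5-fold. The first and the last were past an unadjusted p of 0.05 (0.0249 and 0.0126). With the GC trend removed the ratio of Nodal was 1.11 in steady state and 1.29 at 10 min, and the gene has 52.2% GC against a median of 45.8% at 10 min.

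Tdgf1 encodes Cripto, the membrane co-receptor that Nodal needs, and lies on chromosome 9 (110939608 to 110946158). It had 9.55 and 11.2 RPKM in WT and 11.6 and 13.6 RPKM in EloA null in steady state, which did not overlap. At 5 min it had 9.72 and 13.1 RPKM against 9.69 and 13.7 RPKM, and at 10 min 24.8 and 28.1 RPKM against 26.7 and 24.7 RPKM, and both pairs overlapped. Its log2 fold change was 0.28 (95% interval -0.09 to 0.65) in steady state, 0.03 (-0.63 to 0.70) at 5 min and -0.04 (-0.32 to 0.23) at 10 min. At 10 min the interval of Tdgf1 thus held no change of 1.5-fold.

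Smad7, an intracellular inhibitor that blocks the receptors of both arms, lies on chromosome 18 and is overlapped by a lncRNA of the opposite strand, Gm41776. It had 15.4 and 15.9 RPKM in WT and 16.1 and 18.2 RPKM in EloA null in steady state. At 5 min it had 14.7 and 13.4 RPKM in WT and 11.6 and 14.2 RPKM in EloA null. At 10 min it had 35.3 and 38.8 RPKM in WT and 32.9 and 30.8 RPKM in EloA null. EloA null was thus the higher genotype without overlap in steady state and the lower one without overlap at 10 min. The log2 fold change of Smad7 was 0.13 ± 0.11 (SE) in steady state, -0.13 ± 0.20 at 5 min and -0.21 ± 0.09 at 10 min, with limma adjusted p of 0.542, 0.888 and 0.281, and with the GC trend removed the value was -0.08 in steady state and -0.47 ± 0.13 at 10 min (ratio 0.715, adjusted p 0.186).

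Skil encodes SnoN, a co-repressor that holds Smad2, Smad3 and Smad4 inactive, and lies on chromosome 3 (31095058 to 31122923). It had 1.68 and 1.71 RPKM in WT and 1.87 and 1.44 RPKM in EloA null in steady state, 0.362 and 0.308 RPKM against 0.331 and 0.299 RPKM at 5 min, and 1.58 and 1.56 RPKM against 1.51 and 1.47 RPKM at 10 min. The genotypes overlapped in steady state and at 5 min, where Skil was under the limit and not tested. At 10 min both EloA null libraries of Skil were lower, but the log2 fold change was -0.07 with a 95% interval of -0.33 to 0.19, which holds no change of 1.5-fold.

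**Figure D3:**
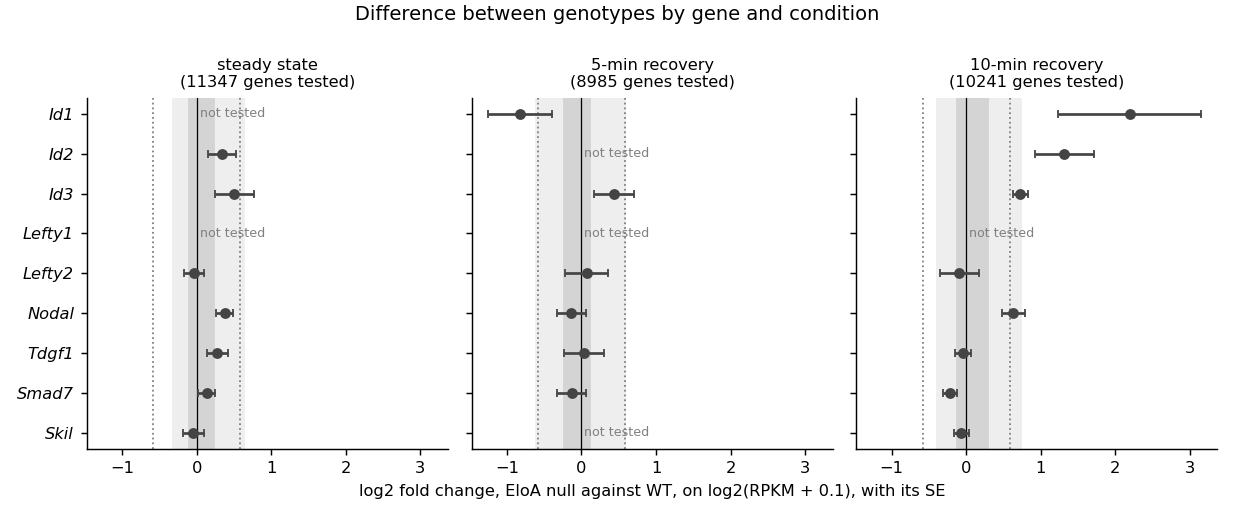
Log2 fold change of each gene between EloA null and WT with its SE from limma, for the 3 tables; grey bands hold the middle 50% and 90% of all genes tested and dotted lines mark 1.5-fold. Genes under 0.5 RPKM in both genotypes are marked as not tested. At 10 min Id2, Id3 and Nodal lie at 0.63 to 1.32, Id1 lies at 2.19 with a SE of 0.96, and the other 4 genes tested lie under 0.

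In steady state, of the 7 genes tested (Id1 and Lefty1 were under the limit), 0 were past 1.5-fold in either direction, while 7.21% of the 11347 genes tested were past it higher in EloA null and 2.1% lower. Id2, Nodal, Tdgf1 and Smad7 were higher without overlap between genotypes, as were 32% of all genes, and 0 were lower without overlap, as were 21.4%. Of these genes, Id2 passed the limit only through EloA null, the group in which it was high. The median log2 fold change of the 7 was 0.28 against 0.03 for all genes, of which the upper quartile was 0.23, and Id2, Id3, Nodal and Tdgf1 lay above that quartile. At 5 min 6 genes were tested, and Id1 alone was past 1.5-fold, in the lower direction, on 1 to 4 reads per library, beside 5.4% of 8985 genes higher and 6.72% lower. It was also the only tested one without overlap, against 15.4% of genes higher and 25% lower.

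At 10 min 8 genes were tested, and 4 of them, Id1, Id2, Id3 and Nodal, were past 1.5-fold higher, against 9.41% of the 10241 genes tested, and 0 were past it lower, against 3.01%. Id1 and Id2 passed the limit only through the group in which they were high. Of the 6 genes above 0.5 RPKM in both genotypes, 2 were past 1.5-fold, Id3 and Nodal, against 6.82% of the 9399 genes above it in both, and Nodal was not without EloA null replicate 1. The same 4 genes were higher without overlap (33.5% of all genes) and Smad7 and Skil lower without overlap (21.8%). With the GC trend removed 2 remained past 1.5-fold, Id1 and Id2. With libraries centred on their median or quantile-normalized 3 did, Id1, Id2 and Id3. Of all 10241 genes, 556 (GC trend removed), 686 (centred) and 657 (quantile) were past 1.5-fold higher. Under these scalings the share of higher genes among all genes past 1.5-fold at 10 min went from 75.8% to 57.7% (GC trend removed), 62.2% (centred) and 58.9% (quantile).

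By limma with Benjamini-Hochberg adjustment, 0 of the tested genes of the 9 had an adjusted p under 0.05 in any table, as did 0% of all genes (0 of 11347, 8985 and 10241). At an unadjusted p under 0.05 the tables held 2083, 846 and 2098 genes, which is 18.4%, 9.42% and 20.5% of all genes tested. Among them were 1 of 7 tested genes of the 9 in steady state (Nodal) and 0 of 6 at 5 min. At 10 min they held 3 of 8 (Id2, Id3 and Nodal), of which Id2 passed the limit of 0.5 RPKM only through EloA null. With 2 libraries against 2, the smallest p that an exact permutation test allows is 0.333 (two-sided).

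Whether the difference between genotypes changed with the condition was tested in 1 fit of all 12 libraries. For 10 min against steady state 0 of 7 genes had an adjusted p under 0.05, and 0.0102% of 9825 genes did. For 5 min against steady state 0 of 5 did, and 0.0811% of 8628 genes. The difference of log2 fold changes at 10 min was 0.97 ± 0.46 (SE) for Id2, 0.22 ± 0.37 for Id3, 0.26 ± 0.23 for Nodal and -0.35 ± 0.18 for Smad7. At 5 min it was -0.51 ± 0.23 for Nodal. At an unadjusted p under 0.05, 0 of these genes passed in either contrast, beside 135 genes of all tested at 10 min and 481 at 5 min.

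Recovery from FP gave a second reading of the same genes, as the level after release over the mean steady-state level of the same genotype. The 3 tables were scaled separately, the BrU pulse was 5 min in one of them, and the ratios are values without a test. Smad7 and Skil have nearly equal spans, 28.6 and 27.9 kb, and gave different ratios. In WT, Skil had ratios of 0.214 and 0.182 at 5 min and 0.935 and 0.918 at 10 min. Smad7 had 0.939 and 0.858 at 5 min and 2.26 and 2.48 at 10 min. The median over 2226 genes of 20 to 40 kb was 0.469 at 5 min and 1.18 at 10 min, so Skil lay under the median of its class (8.98% of the class lay lower at 5 min) and Smad7 above it (82.3% lay lower). The counted introns of Skil begin 0.1 kb from the start site and end at 23.4 kb, and those of Smad7 begin at 2.20 kb and end at 26.5 kb. In EloA null the mean ratios of Skil were 0.191 and 0.902 and those of Smad7 were 0.749 and 1.86.

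Among the shorter genes, Tdgf1 had mean ratios of 1.10 ± 0.228 (SD, n = 2) at 5 min and 2.55 ± 0.226 at 10 min in WT, and Nodal had 0.823 ± 0.0821 and 1.20 ± 0.0137. The median over 1308 genes of 5 to 10 kb was 0.819 and 1.64, so at 10 min the co-receptor lay above it and the ligand under it in WT. Lefty2 had 0.886 ± 0.294 and 1.61 ± 0.381. Id3 stayed under its steady-state level at both times, with 0.410 ± 0.140 and 0.616 ± 0.0442 in WT and 0.388 ± 0.0517 and 0.726 ± 0.0121 in EloA null, where genes under 5 kb had WT medians of 0.773 and 1.03. In EloA null, Nodal had 0.579 ± 0.0871 and 1.45 ± 0.287. The SDs of these ratios hold only the spread of the recovery libraries, because the steady-state mean was taken as fixed. For Id3 that mean was 4.49 ± 1.31 RPKM (SD, n = 2) in WT and 6.36 ± 1.42 RPKM in EloA null. Ratios of Id1, Id2 and Lefty1 rest on too few reads to be read.

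**Figure D4:**
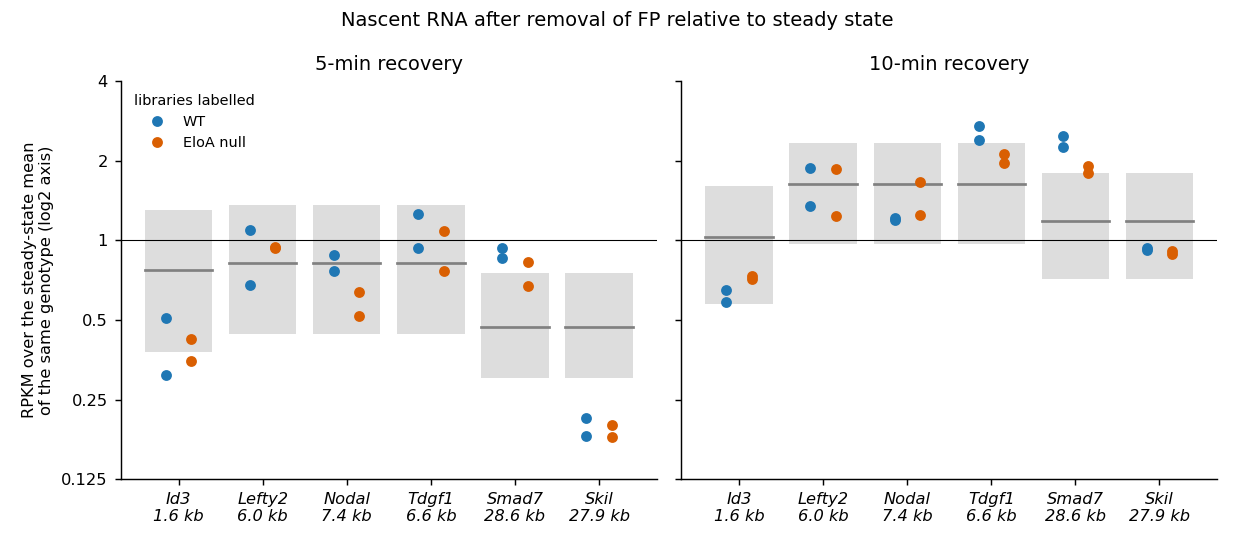
RPKM in each recovery library over the mean steady-state RPKM of the same genotype (log2 axis) for the 6 genes with the most reads, WT in blue and EloA null in orange; grey bars span the quartiles of WT ratios of all genes in the same length class with the median as a line. Skil lies under the lower quartile of its class at 5 min in all 4 libraries, between 0.181 and 0.214, while Smad7 lies between 0.673 and 0.939.

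Id3 is also a neighbour of the targeted gene: 122172 bases separate it from Eloa on chromosome 4 (136003370 to 136021649). Levels of the other genes within 500 kb of the start site of Eloa were therefore set beside it. In steady state 13 such genes were tested, with a median log2 fold change of 0.14 against 0.03 for all genes. Past 1.5-fold, 1 of them was higher and 0 lower, against 7.21% and 2.1% of all genes. Of these 13, 7 were higher without overlap, against 32% of all genes, and Hnrnpr was lower without overlap, against 21.4%. A ratio above 1 was found in 9 of the 13, and the share of all genes was not worked out there. At 10 min 12 of 13 had a ratio above 1, against 58% of all genes, and 9 were higher without overlap, against 33.5%. Past 1.5-fold higher were 3 (Fuca1, E2f2 and Tcea3), against 9.41% of all genes, and 0 were lower, against 3.01%. The median of the 13 was 0.27 against 0.06 for all genes. At 5 min 8 were tested, with a median of -0.02 against -0.06 for all genes. Past 1.5-fold 0 were higher and 0 lower, against 5.4% and 6.72% of all genes. Of these 8, 1 was higher without overlap, against 15.4% of all genes, and Lypla2 was lower without overlap, against 25%. A ratio above 1 was found in 3 of the 8, again without the share of all genes worked out. Fuca1, E2f2, Tcea3, Hnrnpr and Lypla2 were chosen after their values were seen. The part of position near Eloa in the value of Id3 was not tested.

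**Figure D5:**
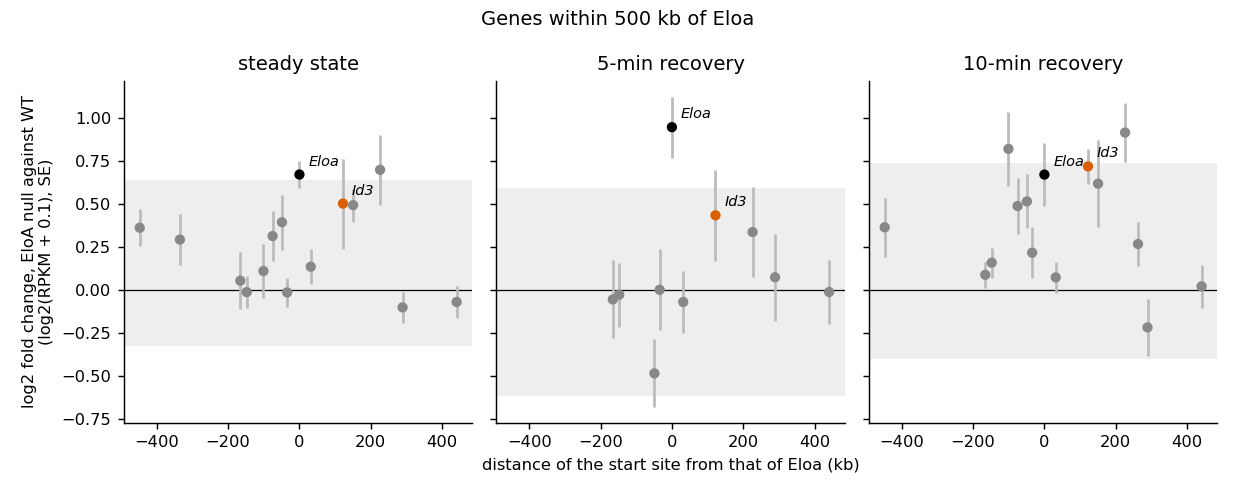
Log2 fold change between EloA null and WT with its SE against the distance of the start site from that of Eloa, for genes tested within 500 kb; the grey band holds the middle 90% of all genes. Id3 lies 122 kb away at 0.50, 0.44 and 0.72, and Eloa at 0.67, 0.95 and 0.67.

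The rest of both pathways was described by 8 lists of 66 genes, all in the tables. In steady state 37 of the 66 were tested, and 2 were past 1.5-fold higher in EloA null and 1 lower, against 7.21% and 2.1% of all genes. At 5 min 24 were tested with 3 higher and 3 lower, against 5.4% and 6.72%, and at 10 min 30 were tested with 1 higher and 1 lower, against 9.41% and 3.01%. Their median log2 fold change was 0.09, -0.14 and -0.08, against 0.03, -0.06 and 0.06 for all genes, and 0 had an adjusted p under 0.05 in any table by limma (11, 5 and 8 at an unadjusted p under 0.05, against 18.4%, 9.42% and 20.5% of all genes). BMP ligands were low, with 1 of 9 above the limit in steady state and 0 of 9 in both recovery tables. That 1, Bmp4, passed it only through EloA null, the group in which it was high. Low levels did not always mean few reads: in steady state Bmp7 had 409 to 489 reads per library and Gdf6 0 to 2.

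Inhbb, which encodes the activin B subunit, was the ligand gene past 1.5-fold, and it was so in all 3 tables. Its mean was 0.603 ± 0.0124 RPKM in WT and 1.62 ± 0.118 RPKM in EloA null in steady state, 0.310 ± 0.129 against 0.878 ± 0.117 RPKM at 5 min, and 0.467 ± 0.0523 against 1.30 ± 0.267 RPKM at 10 min (SD, n = 2). The genotypes did not overlap in any table, on 7 to 109 reads per library. In both recovery tables Inhbb passed the limit of 0.5 RPKM only through EloA null, the group in which it was high. The limma adjusted p of Inhbb was 0.0814, 0.385 and 0.0991. With the spread taken from all 12 libraries it was 0.0386, 0.0206 and 0.0274, and under that setting Acvr1 (lower, 0.0254) and Bambi (higher, 0.0248) passed at 5 min too. So did 132 of 11347, 532 of 8985 and 264 of 10241 genes in the 3 tables. In steady state the limma adjusted p of Inhbb was 0.0816 with centring, 0.0907 with quantile normalization and 0.108 with the GC trend removed. Gdf3, a Nodal-related ligand and the pathway gene of highest level, had 11.3 ± 0.415 RPKM in WT and 14.9 ± 2.01 RPKM in EloA null in steady state.

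Of receptors and Smads, Acvr1, a type I BMP receptor, had 1.20 ± 0.0326 RPKM in WT and 0.723 ± 0.0826 RPKM in EloA null at 5 min, and 0.546 ± 0.0821 against 0.327 ± 0.00921 RPKM at 10 min. Its ratio was 0.770 in steady state, and the genotypes did not overlap in any table. At 10 min Acvr1 passed the limit of 0.5 RPKM only through WT, the group in which it was high. Tgfbr2, the type II TGF-beta receptor, had a ratio of 0.573 in steady state, where it too passed the limit only through WT. At 5 min Smad4, the common partner of all receptor Smads, had a ratio of 0.611, and Smad3 1.63. Of inhibitors, Bambi, a decoy receptor, had a ratio of 1.53 at 5 min and Ski, the relative of Skil, 0.618, and Drap1, a co-repressor that restrains Nodal signalling, 1.52 in steady state. The inhibitors of highest level in steady state, Tgif1 with 6.87 ± 0.0650 RPKM and Ppm1a with 5.80 ± 0.198 RPKM in WT, had ratios of 1.12 and 0.926.

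For each of the 9 genes, the most similar other gene was sought by Pearson's r of log2(RPKM + 0.1) over the 12 libraries among 7336 genes above 0.5 RPKM in all 6 groups. The libraries share 3 conditions whose tables were scaled separately, so r mostly follows the condition. It was Kbtbd8 for Skil (r = 0.997), Ctc1 for Smad7 (0.990), Alkbh4 for Nodal (0.987), Tfip11 for Tdgf1 (0.982) and Fbxo34 for Id3 (0.953). Likeness was lower for the other 4 genes, with Lefty1 nearest to Pim3 (0.890), Id2 to Slc35b2 (0.887), Lefty2 to Gm11517 (0.883) and Id1 to Nip7 (0.835). An r above 0.95 was reached by 602 genes with Skil, 495 with Smad7, 138 with Tdgf1, 18 with Nodal and 1 with Id3, and by 0 with Id1, Id2, Lefty1 and Lefty2.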

How the data were processed

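Bru-seq libraries of WT and EloA null mESC were used. The remaining 16 of 28 samples hold CUT&RUN-seq or ChIP-seq and are not used here. The authors aligned paired-end reads to mm10 and dm3 with bowtie2 2.3.4.3, kept uniquely aligned reads, counted them in RefSeq genes with featureCounts 1.6.1, normalized them with edgeR and deposited RPKM values in 1 table per condition. Genes were matched to RefSeq of GRCm38.p6 by symbol (24418) or older symbol (423). Reads per value were worked out from the steps of low values with rounding to whole numbers. They describe depth and give the ratios of summed reads for Id1, Id2 and Lefty1, and enter no fit. Genes with a mean RPKM above 0.5 in either genotype were tested with limma 3.58.1 in R 4.3.3 on log2(RPKM + 0.1) with an intensity trend, within 1 table, and p-values were adjusted by Benjamini-Hochberg over all genes tested. The fit was tested on simulated data. The limit of 0.5 RPKM is the one by which the study called genes expressed. Library sizes, worked out from the same steps, were 23138348 to 27954236 reads in steady state, 9857527 to 17272752 at 5 min and 18820714 to 28547356 at 10 min. The interaction used all 12 libraries. Intervals of read ratios are exact binomial intervals at 95%.

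The members, the pathway lists and the rules were chosen with earlier results of these data known. Named were the 9 members, the targeted gene, pathway genes past 1.5-fold with a mean of at least 20 reads per library, the 3 pathway genes of highest level and the most similar gene of each member. Alternatives were another pseudocount, no filter, 2 other scalings, removal of the GC trend, a pooled spread, a replicate block and leaving out each library.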

Additional observations from a re-analysis of the deposited data

Results flagged for a closer look

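Smad7 was set apart because its libraries moved opposite ways in 2 conditions: both EloA null libraries were above both WT libraries in steady state and under both at 10 min of recovery. The difference of the log2 fold changes, 10 min minus steady state, was -0.35 ± 0.18 (SE), with an unadjusted p of 0.0843 and an adjusted p of 0.9999 by limma over 9825 genes, so the change of direction did not pass the test. Id1 was set apart in the same way between the recovery tables, with both EloA null libraries under both WT libraries at 5 min and above them at 10 min. The difference of its log2 fold changes, 10 min minus 5 min, was 3.01, on 11 reads in all at 5 min and 15 at 10 min, and was not tested.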

How the results depend on the processing

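No setting gave any of the 9 genes an adjusted p under 0.05, the lowest being 0.0684 (Id2 at 10 min, spread from all 12 libraries). The cause of the shifts below was not tested. Of the 9 genes, those past 1.5-fold higher at 10 min went from 4 to 2 with pseudocount 1 (Id1 and Nodal). They also went to 2 with the GC trend removed, with or without the replicate block. Of all 10241 genes, those higher went from 964 to 292 and 556. With no filter on low values 2 of the 9 were higher in steady state, beside 3843 of 21803 genes. At 5 min 1 was then higher and 2 lower, beside 2985 and 3790 of 20713 genes. With pseudocount 1, 0 of the 9 were lower at 5 min, beside 222 of 8985 genes. Leaving out 1 library gave 0 to 2 higher in steady state (2 without EloA null replicate 1, the library with the wild type genotype label, and 1 without WT replicate 2), 0 to 1 higher (1 without WT replicate 1) and 0 to 1 lower (0 without EloA null replicate 1) at 5 min, and 3 to 4 higher at 10 min (3 without EloA null replicate 1, where Nodal was no longer past it). Such fits leave 1 genotype with a lone library, which is assumed to vary like the others.

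Pathway genes past 1.5-fold in steady state went from 2 to 1 higher with pseudocount 1, centring, quantile normalization and GC trend removal (also with the replicate block). Of all 11347 genes, 206, 657, 558 and 483 were higher under these settings. With no filter 8 pathway genes were higher and 5 lower, beside 3843 and 1854 of 21803 genes. With pseudocount 1, 0 pathway genes were lower, beside 83 of 11347 genes. At 5 min pseudocount 1 gave 0 higher and 0 lower pathway genes, beside 181 and 222 of 8985 genes. No filter gave 12 and 20 there, beside 2985 and 3790 of 20713 genes. At 10 min no filter gave 8 higher and 7 lower pathway genes, beside 4434 and 2228 of 21158 genes. The lower count of 1 became 0 with pseudocount 1, beside 111 of all 10241 genes, and 2 with centring, beside 417. It was 3 with quantile normalization or GC trend removal (also with the replicate block), beside 459 and 408. Leaving out 1 library gave 3 to 4 higher in steady state (4 without EloA null replicate 2), 1 to 4 higher (1 without WT replicate 2) and 1 to 6 lower (6 without EloA null replicate 1, 5 without WT replicate 2, 1 without WT replicate 1 or EloA null replicate 2) at 5 min, and 2 to 4 higher and 1 to 2 lower at 10 min (2 lower without replicate 1 of either genotype).

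Directions reversed for small differences. The steady-state log2 fold change became -0.079 for Smad7 and 0.029 for Skil with the GC trend removed, with or without the replicate block. Over fits without 1 library it ran from -0.10 to 0.042 for Lefty2 (0.042 without WT replicate 1) and -0.22 to 0.13 for Skil (0.13 without EloA null replicate 2) in steady state, and at 5 min from -0.22 to 0.36 for Lefty2 (-0.22 without WT replicate 1), -0.29 to 0.018 for Nodal and -0.28 to 0.018 for Smad7 (0.018 for both without EloA null replicate 1), and -0.22 to 0.28 for Tdgf1 (-0.18 without WT replicate 1 and -0.22 without EloA null replicate 2). At 10 min it ran from -0.36 to 0.17 for Lefty2 (0.13 without WT replicate 2 and 0.17 without EloA null replicate 2) and -0.13 to 0.049 for Tdgf1 (0.049 without WT replicate 2 and 0.013 without EloA null replicate 2).

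Same-numbered libraries had deviations correlated at 0.101, 0.119 and 0.103 in the 3 tables, but with 2 pairs the numbers are not shown to pair libraries. The replicate block cannot move a fold change in a balanced design, so counts past 1.5-fold (4 higher members at 10 min) say nothing about it. It took genes with an adjusted p under 0.05 at 5 min from 0 to 128 of 8985. With the spread from all 12 libraries 132, 532 and 264 genes passed in the 3 tables. At 10 min 5 passed with pseudocount 1, 12 with centring, 6 with quantile normalization and 11 with the GC trend removed, and leaving out 1 library gave 0 to 90 over the 3 tables. The share of higher genes among all past 1.5-fold went in steady state from 77.5% to 61.3% with the GC trend removed and 61.5% with quantile normalization, and at 5 min from 44.5% to 55.2% with centring and 54.7% with quantile normalization.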
